A study of Mus musculus with 32 samples.

Results

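Penk encodes proenkephalin and is described here in RNA sequencing of 32 libraries of CD4+ T cells, 1 gene of the 17159 that passed the filter on low counts. The gene was chosen by its measured levels in the 8 groups of these libraries, so its own levels and fold changes are given as a description and carry no test. Penk was found by its symbol and its values were summed over its 2 annotated transcripts.

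Proenkephalin is a secreted precursor protein that carries several copies of the opioid pentapeptides met-enkephalin and leu-enkephalin. Prohormone convertases cut it at paired basic residues and carboxypeptidases trim the ends, after which the peptides act on delta and mu opioid receptors until peptidases such as neprilysin break them down. T cells are a known source of enkephalins in inflamed tissue, and regulatory T cells that carry a repair program are among the cells in which the transcript has been described.

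Cells were sorted from the liver and spleen of male Foxp3GFP mice on the C57BL/6 strain, in which a green fluorescent reporter marks cells expressing Foxp3, the lineage factor of regulatory T cells. Treg cells were the TCRb+CD4+Foxp3+ cells and Tconv (conventional) cells the TCRb+CD4+Foxp3- cells. Mice were either controls or had received carbon tetrachloride (CCl4), a hepatotoxin used to induce liver injury and scarring; neither the dose, the duration nor the animals' age was stated in the labels. Each of the 4 populations (liver Treg, liver Tconv, spleen Treg, spleen Tconv) had 3 control and 5 CCl4 libraries. The labels do not say whether libraries came from separate animals, so p-values measure only the spread between these samples.

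Total estimated counts ran from 24513124 to 75292019 per library, and Penk itself received between 103 and 10420 counts. Foxp3, the gene of the sort, lay between 909 and 1176 CPM (counts scaled to the library's effective total) in the 16 Treg libraries and between 0.681 and 3.43 CPM in the 16 Tconv libraries. The spleen control libraries 2 and 3 of both cell types stood apart, with 19.4 to 26.4 CPM of Fos, an immediate early gene, against 711 to 1116 CPM in the other 12 spleen libraries. Liver Treg control library 1 held 1113 CPM summed over 6 pancreatic enzyme genes, where the other 2 libraries of its group held 4.97 and 6.06. Without this library the Penk difference after CCl4 in liver Treg cells was 1.60 on the log2 scale, beside 1.56 with all libraries. In the same comparison edgeR then called 1779 genes, beside 2555, and 15 genes of the pathway lists described below, beside 22.

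The gene lies on the minus strand of mouse chromosome 4 at 4133531 to 4138819 (GRCm38, gene ENSMUSG00000045573.9). The transcript ENSMUST00000070375.7 (1449 bases) joins an exon at 4138006 to 4138477 to a last exon at 4133531 to 4134507. The transcript ENSMUST00000133567.1 (721 bases) starts in an additional upstream exon at 4138635 to 4138819, uses a shorter middle exon from 4138006 to 4138145 and ends inside the last exon at 4134112. Both received reads in all groups. The longer transcript took 38.0% to 64.7% of Penk TPM (a level scaled to transcript length), with a median of 56.4%. Its lowest share was in spleen Tconv control 2, which had the fewest Penk counts, 103. How the 2 transcripts divide rests on the authors' probabilistic assignment of reads to sequence that they largely share.

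Penk was most abundant in liver Treg cells after CCl4 and least abundant in spleen Tconv cells of control mice. In liver Treg cells the 3 control libraries held 68.0, 71.0 and 52.8 CPM, a mean of 63.9 ± 9.72 (SD, n = 3). The 5 CCl4 libraries of liver Treg cells held 126, 146, 158, 287 and 225 CPM, a mean of 188 ± 66.4 (SD, n = 5). Every CCl4 library was above every control library.

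Liver Tconv cells of control mice held little Penk, at 5.03, 5.90 and 5.34 CPM (mean 5.43 ± 0.441, SD, n = 3). After CCl4 the liver Tconv libraries held 16.0, 58.5, 19.7, 53.7 and 29.8 CPM (mean 35.6 ± 19.5, SD, n = 5). The groups did not overlap, and the CCl4 libraries were the most variable of all groups, with a coefficient of variation of 54.8%. CCl4 library 2 lay within the range of the control Treg libraries of both tissues, and CCl4 library 4 within that of the liver only.

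Spleen Treg cells of control mice held 76.6, 54.8 and 61.5 CPM (mean 64.3 ± 11.2, SD, n = 3), much like control Treg cells of the liver. After CCl4 they held 71.4, 76.8, 80.6, 143 and 91.1 CPM (mean 92.6 ± 29.2, SD, n = 5). Here the groups overlapped: control library 1 lay above CCl4 library 1, and CCl4 library 4 stood well above the rest.

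Spleen Tconv cells of control mice held 6.62, 3.72 and 4.51 CPM (mean 4.95 ± 1.5, SD, n = 3). The CCl4 libraries held 15.5, 10.04, 15.7, 25.3 and 11.4 CPM (mean 15.6 ± 5.97, SD, n = 5), all above the highest control library.

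**Figure D1:**
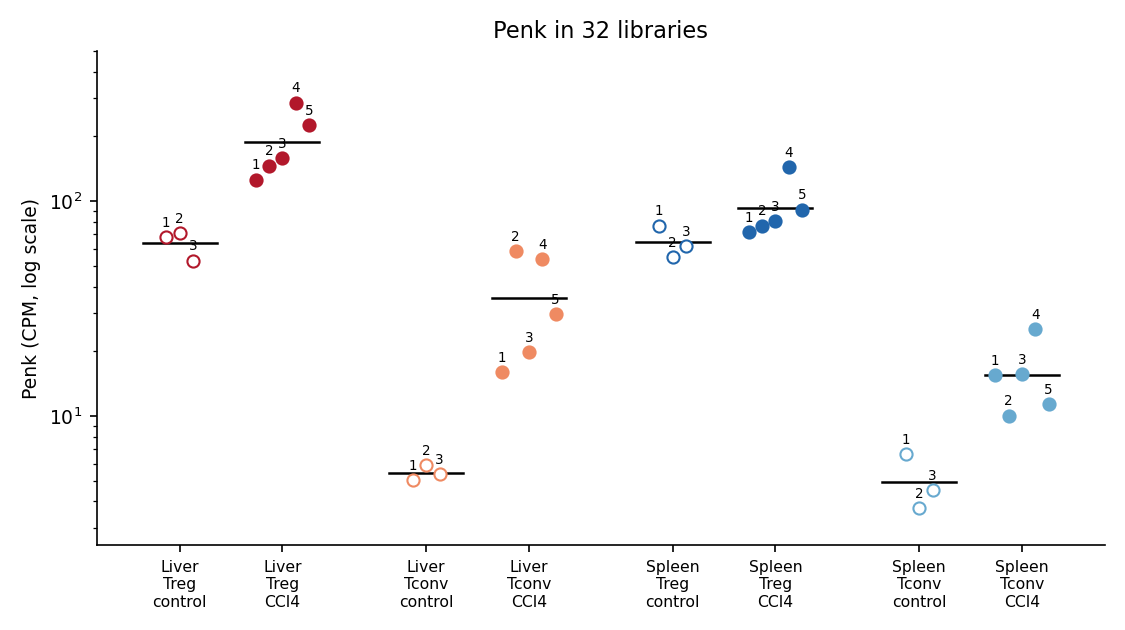
Penk level in CPM (log axis) in each of the 32 libraries, by population and treatment. Open circles are control libraries, filled circles CCl4 libraries, the line is the group mean and the small number is the sample number. The CCl4 libraries lie above all controls in liver Treg, liver Tconv and spleen Tconv cells and overlap them in spleen Treg cells.

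The order of group means in CPM was liver Treg CCl4, spleen Treg CCl4, spleen Treg control, liver Treg control, liver Tconv CCl4, spleen Tconv CCl4, liver Tconv control and spleen Tconv control. Ranges of neighbours in this order overlapped in all but 1 case, the step from spleen Tconv CCl4 down to liver Tconv control (2.87-fold). The 2 control Treg groups differed by a factor of 0.994 and the 2 control Tconv groups by 1.10, both with overlapping libraries, and each of these pairs changed places when the deposited TPM were used. On the TPM scale Penk averaged 313 ± 107 (SD, n = 5) in liver Treg cells after CCl4, where 3.19% of the tested genes had a higher mean TPM. In control liver Tconv cells it averaged 8.18 ± 0.888 TPM (SD, n = 3), and 49.8% of genes were higher.

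The fitted CCl4 effects put these values on 1 scale, as log2 fold changes from edgeR's quasi-likelihood model with their standard errors (SE). In liver Treg cells Penk was higher after CCl4 by 1.56 (SE 0.35), a 2.94-fold difference. In this comparison 14.9% of all genes passed an adjusted p of 0.05 in either direction, and 19.1% had control and CCl4 libraries that did not overlap. Those shares are background to a gene chosen for its values and nothing is read from them for Penk.

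In liver Tconv cells the Penk difference was 2.70 (SE 0.39), or 6.51-fold. Of all 17159 genes tested, 341 had a larger log2 fold change there, against 713 in liver Treg cells. Among the 9871 genes averaging at least 5 CPM these numbers were 6 and 83. Penk was chosen for its values, so nothing is read from these ranks. Few genes were called in this comparison: 0.326% of genes passed the test and 6.65% had libraries that did not overlap.

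In spleen Treg cells the Penk difference was 0.53 (SE 0.34), with 1.18% of genes called and 10.9% of genes not overlapping. In spleen Tconv cells it was 1.62 (SE 0.38), or 3.08-fold, where 1.07% of genes were called and 8.82% did not overlap. Without the 2 low-Fos control libraries the spleen differences for Penk were 0.28 in Treg cells and 1.22 in Tconv cells, each then resting on 1 control library. In both spleen populations those libraries held the lower 2 of the 3 control Penk values, and their part in the Penk difference was not tested beyond that value.

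Penk separated Treg from Tconv cells of the same tissue and treatment in every pairing. Liver Treg cells held 11.8-fold the Penk of liver Tconv cells in controls and 5.29-fold after CCl4, with no overlap at either condition. In the spleen the ratios were 13-fold in controls and 5.95-fold after CCl4, again without overlap. Averaged over treatments the log2 difference was 2.98 (SE 0.26) in liver, where 51.8% of genes passed the test and 23.5% did not overlap at either condition. In spleen it was 3.13 (SE 0.27), where 39.7% of genes passed and 19.6% did not overlap.

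The tissues differed less than the cell types. After CCl4 the liver mean was 2.03-fold the spleen mean in Treg cells and 2.28-fold in Tconv cells, and the libraries overlapped in both. Averaged over treatments, Penk was higher in liver by 0.51 (SE 0.24) on the log2 scale in Treg cells, a comparison in which 60.6% of genes were called and 29.1% did not overlap. In Tconv cells it was higher by 0.66 (SE 0.26), where 55.0% of genes were called and 25.7% did not overlap. Without spleen control libraries 2 and 3 these differences were 0.38 and 0.46, and that between Treg and Tconv cells of the spleen was 3.06.

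Several readouts moved with Penk in liver Tconv cells. Summed over 11 stellate cell and fibroblast genes, liver Tconv libraries held 13.2, 4.73 and 3.66 CPM in controls and 30.1, 55.8, 34.6, 71.6 and 23.6 CPM after CCl4, in the same sample order as the Penk values above. CCl4 libraries 2 and 4 were highest for both. In the CCl4 libraries most of that sum was collagen and decorin transcript, for example Col3a1 at 43.4 CPM in CCl4 library 4, while Lrat, the retinol-storing enzyme that defines stellate cells, was at most 0.0977 CPM. Col1a2, a type I collagen chain, rose in liver Tconv cells by 4.37 (SE 1.00, edgeR adjusted p = 0.0465), from 0.165 to 0.406 CPM in controls to 2.92 to 10.9 CPM after CCl4. Col1a1 was higher by 2.33 (SE 0.86) without passing (edgeR adjusted p = 0.232). In liver Treg cells 1 of the 10 list genes tested was called after CCl4, beside 14.9% of all genes. It was Col1a2 (3.24, SE 0.93, edgeR adjusted p = 0.0163), with overlapping libraries. The list sums there were 7.14, 6.00 and 15.5 CPM in controls and 7.48, 61.1, 8.10, 8.40 and 49.2 CPM after CCl4. CCl4 library 4, which had the most Penk, held 8.40 CPM of that sum. Of the NK and NKT-like cell genes, 3 of 5 were tested in liver Tconv cells. Zbtb16, the lineage factor of NKT cells, fell by 2.73 (SE 0.61, edgeR adjusted p = 0.0408), Klrb1c (NK1.1) had -2.15 (SE 0.52, edgeR adjusted p = 0.0619) and Eomes, a T-box factor, 1.93 (SE 0.46, edgeR adjusted p = 0.0607), each with control and CCl4 libraries that did not overlap. The 5 genes together summed to 27.9 to 51.0 CPM in controls and 16.8 to 49.4 CPM after CCl4. The pancreatic enzyme genes summed to 4.89, 5.56 and 58.8 CPM in the liver Tconv controls and to 2.73 to 6.12 CPM after CCl4. The part of other cells' RNA in the Penk difference was not tested, and in bulk samples more cells expressing Penk and more Penk RNA per cell cannot be told apart.

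Foxp3 moved the other way in the same liver Tconv libraries. It fell by 1.14 (SE 0.22, edgeR adjusted p = 0.0329), from 2.96, 1.23 and 2.60 CPM in controls to 0.681, 0.837, 1.02, 1.01 and 1.34 CPM after CCl4, so that only control library 2 lay inside the CCl4 range. The other 3 Treg marker genes were not called: Ikzf2, which encodes Helios, had 0.48 (SE 0.18), the inhibitory receptor gene Ctla4 0.53 (SE 0.17) and the interleukin-2 receptor gene Il2ra -0.26 (SE 0.23), with edgeR adjusted p of 0.23, 0.163 and 0.676. The 4 genes summed to 302 to 403 CPM in controls and 365 to 527 CPM after CCl4, most of it Ctla4. This liver Tconv comparison called 56 genes with all libraries and 2 without control library 3. The calls of Foxp3, Zbtb16 and Col1a2 were not followed with single libraries left out. In the spleen Treg libraries, 10 myeloid and Kupffer cell genes summed to between 17.4 and 23.4 CPM in controls and between 60.5 and 115 CPM after CCl4. In spleen Tconv cells they went from 10.2 to 15.9 CPM in controls to 18.1 to 42.1 CPM. The 8 hepatocyte genes also summed higher after CCl4, from 6.63 to 10.1 CPM to 19.8 to 29.7 CPM in spleen Treg and from 2.81 to 4.76 CPM to 5.20 to 10.98 CPM in spleen Tconv cells. The part of those transcripts in the spleen values of Penk was not tested.

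**Figure D2:**
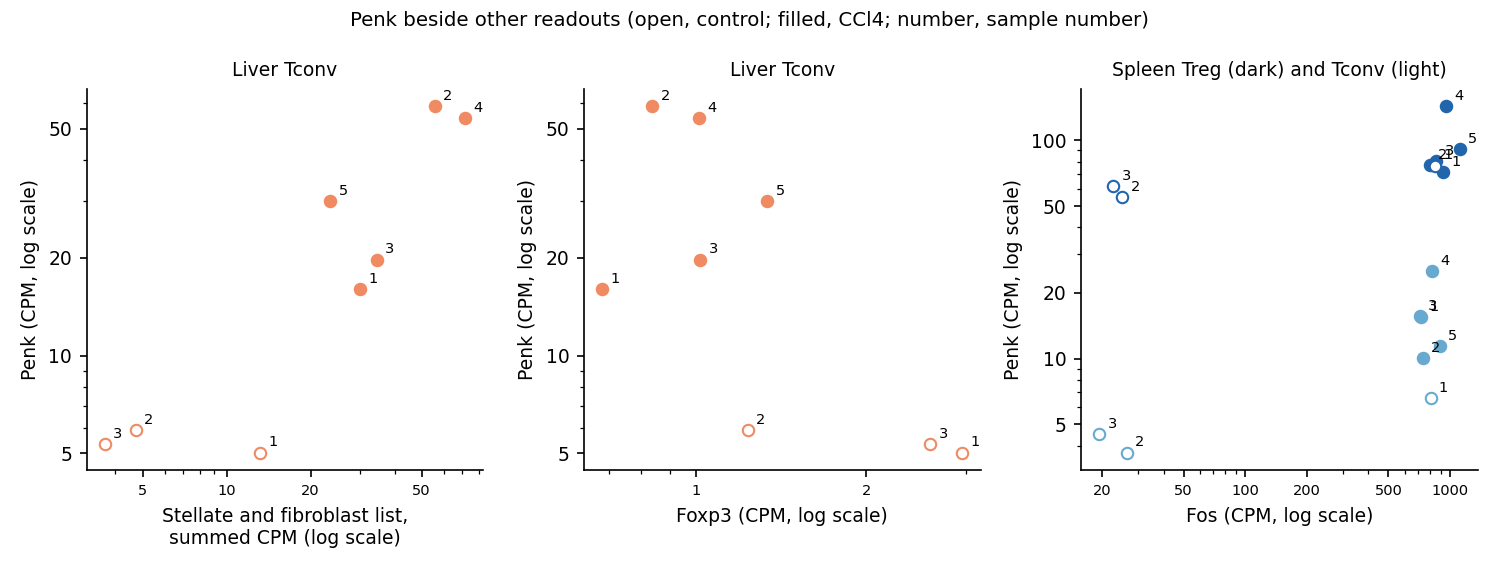
Penk CPM (log axes) against the summed CPM of 11 stellate and fibroblast genes and against Foxp3 CPM in liver Tconv libraries, and against Fos CPM in spleen libraries. Open circles are controls, filled circles CCl4 and numbers are sample numbers. In liver Tconv cells the CCl4 libraries have more Penk, a higher stellate sum and mostly less Foxp3, and in the spleen 2 control libraries of each cell type lie near 20 CPM of Fos.

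Of the 4 opioid precursor genes, Penk had the highest mean level per length in each group, although in control liver Tconv cells it was close to Pomc, with 8.18 TPM of Penk and 7.07 ± 2.86 TPM (SD, n = 3) of Pomc and more Penk in 2 of 3 libraries. Pdyn, the dynorphin precursor, had 0 counts in all 32 libraries, and Pnoc, the nociceptin precursor, stayed below the count filter. Pomc, the precursor of beta-endorphin, averaged 12.0 ± 1.91 TPM (SD, n = 8) in liver Treg cells, where Penk averaged 238 ± 132 TPM. Pomc passed in none of the 4 CCl4 comparisons, with a log2 fold change of -0.02 (SE 0.20) in liver Treg cells. In both cell types Pomc was higher in the liver, by 0.45 (SE 0.14, edgeR adjusted p = 0.00839) in Treg cells and 0.61 (SE 0.15, edgeR adjusted p = 0.000711) in Tconv cells. Without spleen control libraries 2 and 3 the first of these was 0.29 and did not pass (edgeR adjusted p = 0.22).

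The mu, delta and kappa opioid receptors were at or near the detection limit in these T cells. Oprm1, the mu receptor, averaged at most 0.953 CPM in any group and Oprd1, the delta receptor, at most 0.281 CPM. Oprk1, the kappa receptor, did not pass the count filter. Ogfr, a structurally unrelated protein that binds met-enkephalin, was the abundant member of the list at 85.9 to 128 CPM by group. Of the 5 receptor genes tested, 1 was called in liver Treg cells after CCl4, beside 14.9% of all genes. This was Ogfr, which fell by 0.45 (SE 0.09, edgeR adjusted p = 0.000604), from 118, 126 and 107 CPM to between 82.1 and 93.2 CPM. The median over the 5 was 0.60, beside 0.00 over all genes. That median is the value of Oprm1 (SE 0.38, edgeR adjusted p = 0.337), which lay under 1 CPM and was not called. In the other 3 populations 0 of the 5 were called by edgeR or by DESeq2. Over all genes edgeR called 0.326% in liver Tconv, 1.18% in spleen Treg and 1.07% in spleen Tconv cells. Ogfr in liver Tconv and Ogfr and Ackr3 in spleen Treg cells had an unadjusted p under 0.05.

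Ackr3, a scavenger receptor that takes up chemokines and opioid peptides, was higher in liver than in spleen, by 4.71 (SE 0.83, edgeR adjusted p = 1.66e-05) in Treg cells and 4.45 (SE 0.75, edgeR adjusted p = 9.71e-06) in Tconv cells. Oprm1 was higher in Treg than in Tconv cells of the liver by 1.69 (SE 0.28, edgeR adjusted p = 1.02e-05), although at under 1 CPM.

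Among the opioid system lists, that of prohormone processing enzymes had the most members called in liver Treg cells. Of 10 such genes tested, 3 rose and 1 fell after CCl4, where 14.9% of all genes were called, with a list median of 0.48 beside 0.00 over all genes. Pcsk1, the convertase that cleaves proenkephalin in neuroendocrine cells, was at 24.1, 47.0 and 19.4 CPM in control liver Treg libraries and at 35.1, 80.0, 195, 85.9 and 116 CPM after CCl4. It rose by 1.76 (SE 0.59, edgeR adjusted p = 0.0414), with control library 2 above CCl4 library 1. That call was lost when any of 5 of the 8 libraries was left out (control 1 or 3, or CCl4 3, 4 or 5), with adjusted p up to 0.161.

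Cpe, the carboxypeptidase that removes the basic residues left by the convertases, was at 11.6, 15.2 and 8.22 CPM in control liver Treg libraries and at 27.6, 37.7, 36.8, 32.8 and 48.1 CPM after CCl4. The groups did not overlap, and Cpe rose by 1.65 (SE 0.38, edgeR adjusted p = 0.00316). Cpd, a second carboxypeptidase of the secretory pathway, was at 27.3, 35.98 and 39.4 CPM in controls and between 66.8 and 96.6 CPM after CCl4. It rose by 1.2 (SE 0.28, edgeR adjusted p = 0.00336), also without overlap. The calls for Cpe, Cpd and Ogfr held with each of the 8 liver Treg libraries left out in turn.

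Scg5 encodes 7B2, a chaperone of the convertase PC2. It fell in liver Treg cells by 1.12 (SE 0.37, edgeR adjusted p = 0.0381), from 1.04 ± 0.0787 (SD, n = 3) to 0.475 ± 0.320 CPM (SD, n = 5), a call lost without control library 1, 2 or 3 or CCl4 library 2, 4 or 5 (adjusted p up to 0.113). Pcsk2, the gene of PC2, was under 1 CPM in every group. Furin and Pcsk7, convertases of the general secretory pathway, were abundant, at 57.4 ± 11.8 and 44.7 ± 5.49 TPM (SD, n = 8) in liver Treg cells, and neither was called in any CCl4 comparison.

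In liver Tconv, spleen Treg and spleen Tconv cells 0 of the 10 processing genes were called after CCl4 by edgeR or by DESeq2. Over all genes edgeR called 0.326%, 1.18% and 1.07% in the same order. Of the 10 genes, 1, 1 and 2 had an unadjusted p under 0.05. Cpe in liver Tconv cells went from 6.87 ± 1.95 (SD, n = 3) to 13.4 ± 6.16 CPM (SD, n = 5), without overlap and without passing (0.97, SE 0.38, edgeR adjusted p = 0.261). When the CCl4 effect in liver Treg cells was compared directly with that in liver Tconv cells, 3.64% of all genes differed and no processing gene did: the differences were 2.32 (SE 0.80, edgeR adjusted p = 0.115) for Pcsk1, 0.67 (SE 0.51, edgeR adjusted p = 0.608) for Cpe and 1.00 (SE 0.38, edgeR adjusted p = 0.169) for Cpd. Against spleen Treg cells, where 5.48% of genes differed, the CCl4 effect was larger in liver Treg cells for Cpe by 1.85 (SE 0.52, edgeR adjusted p = 0.0308). Without spleen control libraries 2 and 3 the Cpe difference was again 1.85, with an adjusted p of 0.156.

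**Figure D3:**
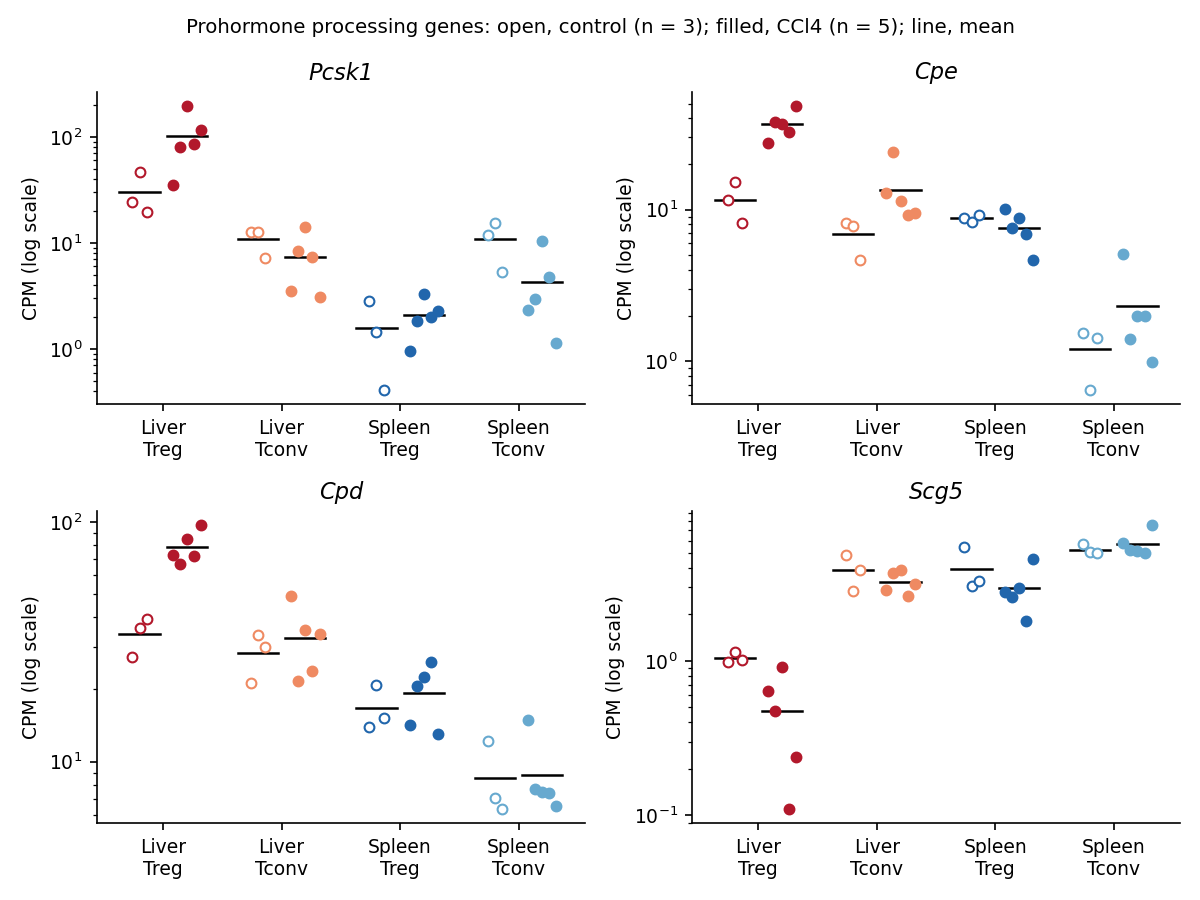
CPM (log axes) of the prohormone processing genes Pcsk1, Cpe, Cpd and Scg5 in each library. Open circles are control libraries (n = 3), filled circles CCl4 libraries (n = 5) and lines group means. In liver Treg cells Cpe and Cpd lie higher in all CCl4 libraries than in controls, Pcsk1 overlaps in 1 pair of libraries and Scg5 lies lower.

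The processing genes also differed with tissue and cell type. Liver Treg cells exceeded spleen Treg cells in Pcsk1 by 4.96 (SE 0.49, edgeR adjusted p = 9.77e-10), in Cpd by 1.53 (SE 0.20, edgeR adjusted p = 1.22e-07) and in Cpe by 1.33 (SE 0.26, edgeR adjusted p = 6.68e-05). In that comparison, where 60.6% of all genes were called, 6 of the 10 were higher in liver and 1, Scg5, was lower. In Tconv cells, where 55.0% of all genes were called, 6 were higher in liver and 2, Pcsk7 and Scg5, were lower. Among the 6 were Pcsk5 (1.98, SE 0.72, edgeR adjusted p = 0.0207) and Pcsk6 (3.36, SE 1.19, edgeR adjusted p = 0.0178). Between Treg and Tconv cells the 10 genes went both ways. In liver 4 were higher in Treg cells and 3 lower, where 51.8% of all genes were called (list median -0.09). In spleen 2 were higher and 3 lower, where 39.7% were called. Lower in liver Treg cells were Furin (-1.09, SE 0.15, edgeR adjusted p = 6.3e-07), Ctsl (-0.98, SE 0.13, edgeR adjusted p = 1.18e-07) and Scg5 (-2.32, SE 0.27, edgeR adjusted p = 1.61e-08). Ctsl was also lower in spleen Treg cells (-0.60). Treg cells exceeded Tconv cells in Cpe by 1.11 (SE 0.26, edgeR adjusted p = 0.000655) in liver and 2.28 (SE 0.28, edgeR adjusted p = 9.1e-08) in spleen. Pcsk1 was higher in Treg than in Tconv cells in liver (2.64, SE 0.42, edgeR adjusted p = 4.82e-06) and lower in spleen (-1.94, SE 0.45, edgeR adjusted p = 0.000805). Without spleen control libraries 2 and 3 the spleen difference was -1.56 for Pcsk1, 0.67 in place of 1.05 for Cpd and -0.51 in place of -0.69 for Scg5. These 3 genes did not pass in that fit, which has 1 control library per spleen population. Cpe had 2.13 in place of 2.28. Scg5 in liver against spleen Tconv cells had -0.70 in place of -0.64 and did not pass either. Per length, mean Penk exceeded Pcsk1 and Cpe in liver Treg cells, where Pcsk1 averaged 24.3 ± 19.4 TPM and Cpe 21.8 ± 11.5 TPM (SD, n = 8).

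Among 8 enkephalin-degrading peptidases tested, 0 were called after CCl4 in any of the 4 populations by edgeR or by DESeq2. Over all genes edgeR called 14.9% in liver Treg, 0.326% in liver Tconv, 1.18% in spleen Treg and 1.07% in spleen Tconv cells. List medians lay between -0.13 and 0.22, and at most 2 had an unadjusted p under 0.05 (Npepps and Thop1 in liver Treg cells). Mme, or neprilysin, and Anpep, an aminopeptidase, averaged under 1 CPM in every group. Dpp3, a dipeptidyl peptidase that cleaves enkephalins, was abundant, at 93.1 ± 8.39 TPM (SD, n = 8) in liver Treg cells. Dpp3 was lower in liver than in spleen by a log2 difference of -0.46 (SE 0.08, edgeR adjusted p = 5.54e-06) in Treg cells and -0.69 (SE 0.08, edgeR adjusted p = 9.77e-09) in Tconv cells. Other peptidases went the other way. In Treg cells 2 of the 8 were higher in liver (Lnpep and Mme) and 3 lower (Dpp3, Ece1 and Thop1), where 60.6% of all genes were called. In Tconv cells 3 were higher (Lnpep, Mme and Anpep) and 1 lower, where 55.0% were called. Lnpep was higher in liver by 0.67 (SE 0.09, edgeR adjusted p = 2.31e-07) in Treg and 0.51 (SE 0.09, edgeR adjusted p = 1.97e-05) in Tconv cells.

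AP-1, CREB and ATF proteins are transcription factors through which the Penk promoter is known to respond to activation and to cyclic AMP. Of 19 tested, 2 were called in liver Treg cells after CCl4, Fosl2 (0.91, SE 0.22, edgeR adjusted p = 0.00514) and Crem (0.55, SE 0.13, edgeR adjusted p = 0.00435), beside 14.9% of all genes, and the list median was 0.01. In liver Tconv cells, where 0.326% of all genes were called, 1 of 19 was: Creb5, a CREB family factor, went from 18.9, 14.6 and 12.8 CPM to 31.7, 59.2, 42.4, 67.1 and 32.2 CPM, and rose by 1.60 (SE 0.32, edgeR adjusted p = 0.0329). CCl4 libraries 2 and 4 held the most Creb5, as they did the most Penk. The Creb5 call was lost without any 1 of the 3 controls or CCl4 library 4 (adjusted p up to 0.192).

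Fos and Jun were called in neither liver comparison: Fos was at 589 to 703 CPM in control and 418 to 582 CPM in CCl4 liver Treg libraries. In spleen Treg cells Fosl2, Jun, Atf3 and Crem rose (4 of 19, beside 1.18% of all genes) and in spleen Tconv cells Fosl2 rose (1 of 19, beside 1.07%). Without the low-Fos control libraries 2 and 3 edgeR called 0 genes in either spleen comparison, with 1322 genes at an unadjusted p under 0.05 in spleen Treg and 704 in spleen Tconv cells, and DESeq2 called 46 and 18. Of the 16 list calls that edgeR made in the spleen with all libraries, 0 were kept. That fit has 1 control library per cell type, assumed to vary like the other groups, so the absence of these 2 libraries and the loss of replicates cannot be told apart. The folds themselves also moved: Jun in spleen Treg cells had 0.38 in place of 1.27, Atf3 1.15 in place of 2.60, and Fosl2 0.37 in place of 1.25. Batf, an AP-1 partner factor of effector Treg cells, was called in none of the 4 CCl4 comparisons.

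Genes induced through the antigen receptor gave 5 higher and 1 lower of 20 in liver Treg cells, beside 14.9% of all genes called, with a median of 0.38. The costimulatory receptors Tnfrsf4 (0.81, SE 0.14, edgeR adjusted p = 9.5e-05) and Tnfrsf9 (0.90, SE 0.16, edgeR adjusted p = 0.000215) were among those that rose. In liver Tconv cells edgeR called 1 of the 20, beside 0.326% of all genes: Spry1, a feedback inhibitor of receptor tyrosine kinase signalling. DESeq2 called 2, Spry1 and Tnfrsf4. The 5 CCl4 libraries for Spry1 (102 to 255 CPM) lay above the controls (48.9 to 57.9 CPM). The Spry1 call was lost without control library 1 or 3 or CCl4 library 4 (adjusted p up to 0.152). In spleen Treg cells 4 of 20 rose, beside 1.18% of all genes called, and in spleen Tconv cells 2 of 20 rose, beside 1.07%. DESeq2 called 6 in each, and without spleen control libraries 2 and 3, with 1 control library left, edgeR called 0 in each.

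Tissue Treg and repair genes, a list that did not include Penk, gave 9 higher and 0 lower of 16 in liver Treg cells after CCl4, beside 14.9% of all genes called, with a median of 1.16. The smallest adjusted p was that of Gata3, a lineage factor of tissue Treg cells, at 301 ± 30.6 CPM (SD, n = 3) in controls and 864 ± 144 CPM (SD, n = 5) after CCl4 (1.52, SE 0.12, edgeR adjusted p = 4.81e-10). In spleen Treg cells 5 of 16 rose, beside 1.18% of all genes called, and edgeR called 0 without spleen control libraries 2 and 3, when 1 control library was left. In the Tconv cells of either tissue 0 of 16 were called by edgeR, beside 0.326% of all genes in liver and 1.07% in spleen. In each, 6 of 16 had an unadjusted p under 0.05. DESeq2 called 4 in liver Tconv (Ccr8, Prdm1, Il10 and Ebi3) and 2 in spleen Tconv cells (Nfil3 and Il10). The Gata3 effect was larger in liver Treg than in liver Tconv cells by 1.39 (SE 0.16, edgeR adjusted p = 3e-06).

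None of the 4 neighbouring genes with counts was called in any CCl4 comparison, where between 0.326% and 14.9% of all genes were called. On the side of lower coordinates, Sdr16c5 and Sdr16c6, retinol dehydrogenase family genes, had 0 CPM on average, and Chchd7, a mitochondrial protein gene 182153 bases away, had log2 fold changes from -0.02 to 0.02 after CCl4. On the other side, Bpnt2, a Golgi phosphatase gene 623669 bases away, had log2 fold changes of 0.06 to 0.36. Fam110b and Ubxn2b, farther along the chromosome, had log2 fold changes from -0.23 to 0.40 and from -0.06 to 0.07.

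Libraries within a group varied in Penk, and this variation was used to find genes with the most similar pattern. Each gene's log2 CPM was taken as its deviation from its group mean, so differences between groups did not enter. Over all 32 libraries and 9253 genes averaging at least 5 CPM, the highest Pearson correlations with Penk were those of Nrn1 (r = 0.77, Spearman's rho = 0.80), Lag3 (r = 0.76, rho = 0.75), Decr1 (r = 0.73, rho = 0.74), Cd81 (r = 0.72, rho = 0.67), Tox2 (r = 0.71, rho = 0.68) and Lsr (r = 0.71, rho = 0.73). The lowest were those of Phf3 and Pag1 (both r = -0.72, rho = -0.65) and Anp32a (r = -0.71, rho = -0.54). The median over all genes was 0.04 and 33 genes exceeded 0.6. The points share groups, depth and library preparation, and the values are descriptive.

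Nrn1 encodes neuritin, a small membrane-anchored protein, and Lag3 an inhibitory receptor of activated T cells. Nrn1 averaged 38.1 ± 5.06 CPM (SD, n = 3) in control and 227 ± 43.4 CPM (SD, n = 5) in CCl4 liver Treg libraries, and 3.69 ± 0.206 and 6.48 ± 2.52 CPM in the liver Tconv groups. Its CCl4 difference was thus 2.57 (SE 0.27) in liver Treg and 0.81 (SE 0.28) in liver Tconv cells, whereas that of Penk was larger in the Tconv cells. Tox2, an HMG-box factor gene, was higher after CCl4 by 1.36 (SE 0.31) in liver Treg and 0.84 (SE 0.31) in liver Tconv cells, and Lag3 by 0.64 (SE 0.56) and 1.16 (SE 0.59).

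CCl4 libraries numbered 4 weighed on this ranking, since Penk deviated upward in all 4 of them, by 0.68 in liver Treg, 0.78 in liver Tconv, 0.68 in spleen Treg and 0.77 in spleen Tconv cells. Without these 4 libraries r was 0.66 for Nrn1, 0.64 for Lag3, 0.71 for Decr1, 0.54 for Tox2 and -0.55 for Phf3, and 3 of the 9 named genes remained among the 6 highest and 3 lowest. Without the 2 libraries whose Penk deviated most, CCl4 libraries 1 and 2 of liver Tconv cells, r was 0.76 for Nrn1 and 0.82 for Lag3, and 2 of the 9 remained.

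**Figure D4:**
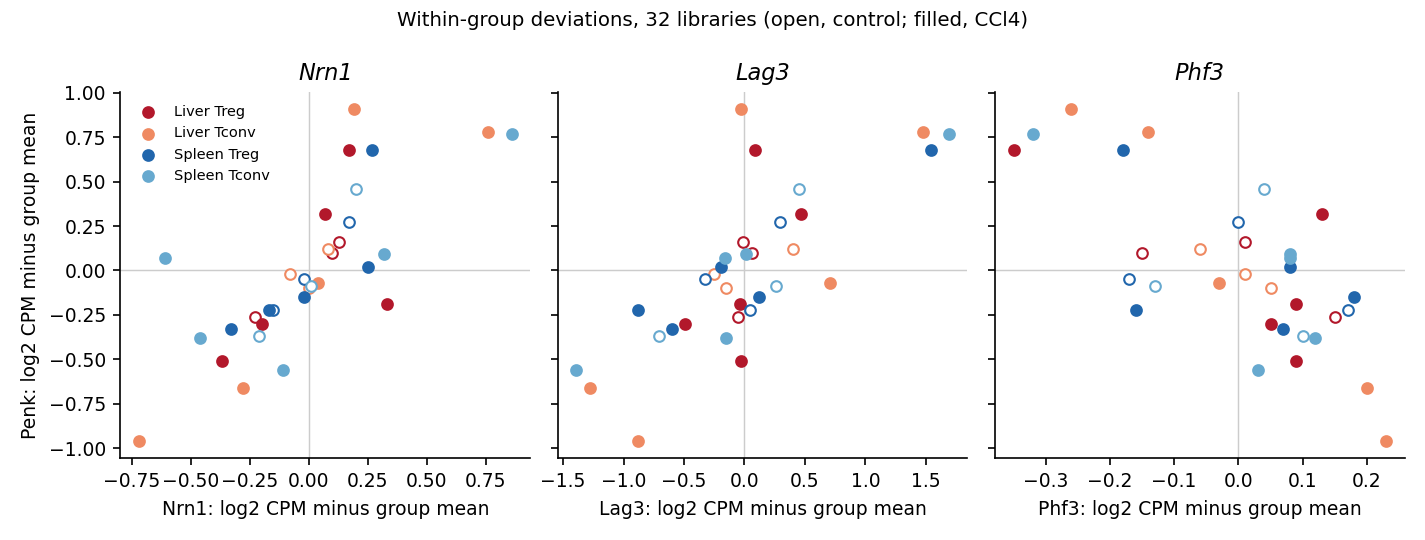
Deviation of Penk from its group mean (log2 CPM, vertical axis) against that of Nrn1, Lag3 and Phf3 (horizontal axes) in 32 libraries, coloured by population, with controls open and CCl4 filled. Points rise to the right for Nrn1 and Lag3 (r = 0.77 and 0.76) and fall for Phf3 (r = -0.72).

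Within single populations, each with 8 libraries, other genes led. They were Shmt2, Nucks1 and Polr2g in liver Treg cells (r from 0.97 to 0.98), Swi5, Ms4a4b and Ramac in liver Tconv cells (0.95 to 0.96), Ctsz, Nkg7 and Prnp in spleen Treg cells (0.97 to 0.99), and Mta1, Hnrnpl and Prkaca in spleen Tconv cells (0.97 to 0.98). Between 124 and 320 genes exceeded 0.8 in a population, 753 of them in 1 population only, 34 in 2, 1 in 3 and 0 in all 4. Ms4a4b, a T cell membrane protein gene, had r = 0.96 in liver Tconv cells and r = -0.90 in liver Treg cells. Hnrnpl, an RNA-binding splicing factor gene, had r = 0.97 in spleen Tconv cells and r = -0.94 in liver Treg cells.

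Genes of the lists followed Penk within groups to different degrees over the 32 libraries. Il10, an anti-inflammatory cytokine gene, had r = 0.66 (rho = 0.66), Spry1 r = 0.56 (rho = 0.48) and Tnfrsf9 r = 0.51 (rho = 0.50). Negative values were those of the peptidases Lnpep (r = -0.62, rho = -0.42) and Npepps (r = -0.46, rho = -0.50), of Oprm1 (r = -0.53, rho = -0.34) and of Scg5 (r = -0.36, rho = -0.31), among others. Oprm1 in every group, and Scg5 in liver Treg cells, averaged far below the 5 CPM required for the ranking. Their values rest on few counts. The peptidases Ece1 (r = 0.40, rho = 0.43) and Dpp3 (r = 0.33, rho = 0.38) had positive ones. Among the processing enzymes, Pcsk1 and Cpe both had r = 0.30 (rho = 0.35 and 0.28), and Cpd r = -0.14 (rho = -0.09). Fos had r = 0.25 (rho = 0.24), Batf r = 0.31 (rho = 0.37), Foxp3 r = -0.05 (rho = -0.05) and Col1a1 r = -0.01 (rho = 0.12). Such pooled values cover populations that differed. By population, r for Fos was 0.52 in liver Treg, -0.51 in liver Tconv, 0.40 in spleen Treg and 0.46 in spleen Tconv cells. In the same order it was 0.01, 0.32, 0.91 and 0.19 for Batf and 0.43, 0.05, 0.19 and -0.51 for Foxp3. The low-Fos spleen control libraries enter the pooled Fos value, and their part in it was not tested.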

How the data were processed

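RNA of sorted cells was converted to cDNA with the Clontech Ultra Low v4 kit and made into NexteraXT libraries, per the labels' protocols. The submitters' processing notes name bcl2fastq 2.19, kallisto 0.44.0, DESeq2 and GRCm38.p6. The authors deposited estimated counts and TPM per transcript for each library, with transcript lengths; no further normalization is recorded. Low-input cDNA without molecular identifiers means that counting error is not the whole error.

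Estimated counts and TPM were summed to genes with GENCODE M21 (98.5% of 118489 transcripts matched; the unmatched ones held 0.684% to 0.823% of counts), and counts were rounded to whole numbers. Genes were filtered with filterByExpr, normalized by TMM (factors 0.923 to 1.065) and fitted over all 32 libraries and 8 groups with edgeR 4.0.16 in R 4.3.3 (glmQLFit, glmQLFTest, 24 residual degrees of freedom, two-sided, Benjamini-Hochberg over 17159 genes), a script tested on simulated data. CPM use TMM library sizes. "Called" means an adjusted p under 0.05. Tissue and cell type comparisons average over treatments. Likeness used log2 CPM with a prior count of 2. Alternatives were DESeq2 1.42.0, its size factors, no filter, a replicate block, length offsets, log2(TPM + 0.1) and libraries left out.

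Penk and the lists were chosen with earlier results of these data known. Named are Penk and opioid system genes called or averaging at least 5 CPM in a population (others by group). Not every comparison that called such a gene is given. Also named are up to 4 called genes of each other list by adjusted p, Fos, Jun, Batf, Foxp3, Col1a1 and Col1a2. Further named genes are the 6 highest and 3 lowest correlates over all libraries, the 3 highest per population and the 3 nearest neighbours on each side. Il10, Lrat, Col3a1, Pdyn, Pnoc, Oprk1 and the genes named for a DESeq2 or unadjusted result were chosen after their values were seen.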

Additional observations from a re-analysis of the deposited data

Results flagged for a closer look

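In 11 genes and the 4 CCl4 groups of 5 libraries, 44 sets of values were screened for a library far from the others, meaning a gap to its nearest neighbour above 0.71 of the whole range; chance flags about 1 in 20 such sets, and 5 were flagged. Penk in spleen Treg CCl4 library 4 was 143 CPM, with the next library at 91.1 CPM (gap 0.726 of the range). Without that library the spleen Treg log2 difference for Penk was 0.31 in place of 0.53. Cpe was 24.1 CPM in liver Tconv CCl4 library 2 (next 12.9) and 5.13 CPM in spleen Tconv CCl4 library 1 (next 2.00). Cpd was 14.9 CPM in that same spleen Tconv library (next 7.68). Col1a2 was 3.34 CPM in spleen Treg CCl4 library 1 (next 0.644).

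The CCl4 effect differed between populations for some list genes, by a test of the difference in the edgeR model added after seeing the data. Larger in liver Treg than in liver Tconv cells were the effects on Gata3 (1.39, adjusted p = 3e-06), Id2 (1.62, adjusted p = 0.00015), Cxcr6 (1.89, adjusted p = 0.0129) and Tnfrsf9 (0.83, adjusted p = 0.0361). Liver Treg minus spleen Treg gave 1.07 for Gata3 (adjusted p = 0.000142), -0.65 for Ogfr (adjusted p = 0.00177), 1.85 for Cpe (adjusted p = 0.0308), 1.80 for Cxcr6 (adjusted p = 0.0232), 1.47 for Creb5 (adjusted p = 0.0482), -1.63 for Jun (adjusted p = 0.0204), -2.49 for Atf3 (adjusted p = 0.0237) and -0.79 for Atf4 (adjusted p = 0.0319). Without the low-Fos spleen control libraries 2 and 3, Gata3 and Jun passed in this second comparison (adjusted p = 0.000502 and 0.0428, Jun at -0.75), and the other 6 did not (adjusted p from 0.0578 for Ogfr to 0.414 for Atf4).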

How the results depend on the processing

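Penk kept its direction in all 149 alternative values over the 8 comparisons, each within 1 within-group SD of its value in the report. That SD is the spread of single libraries, a wide margin for a fitted difference. The spleen Treg difference of 0.53 stayed inside it at 0.26 (replicate block) and 0.28 (without spleen control libraries 2 and 3). For CCl4, leaving out single libraries gave 1.35 to 1.67 in liver Treg and 2.45 to 2.89 in liver Tconv cells. It gave 0.31 to 0.67 in spleen Treg and 1.39 to 1.90 in spleen Tconv cells. For liver against spleen the ranges were 0.41 to 0.61 in Treg and 0.53 to 0.79 in Tconv cells. For Treg against Tconv cells they were 2.87 to 3.10 in liver and 3.02 to 3.26 in spleen. Ordering groups by TPM kept 4 of 8 ranks. The Penk likeness list kept 2 of 9 genes without the 2 most deviant libraries and 3 of 9 without the CCl4 libraries numbered 4; the cause was not tested.

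Counts of called genes after CCl4 were less stable. With single libraries left out they ran from 1779 (without control 1) to 2533 in liver Treg (2555 with all), 2 (without control 3) to 69 in liver Tconv (56 with all), 9 (without control 2) to 342 (without control 1) in spleen Treg (202 with all) and 0 (without control 2) to 664 (without control 1) in spleen Tconv cells (183 with all). List genes called ran from 15 to 23, 0 to 3, 0 to 23 and 0 to 20 in the same order (22, 2, 13 and 3 with all). For liver against spleen, called genes ran from 9753 to 10359 in Treg and 8778 to 9387 in Tconv cells, with 56 to 61 list genes in both; for Treg against Tconv cells from 8350 to 8913 in liver and 6226 to 6700 in spleen, with 49 to 54 and 38 to 45 list genes. Without the low-count filter 24 genes were called in liver Tconv and 101 in spleen Tconv cells. DESeq2 called 273 genes and 7 list genes in liver Tconv, 498 genes in spleen Treg, and 658 genes and 11 list genes in spleen Tconv cells. Without spleen control libraries 2 and 3, where 18645 genes passed the filter, edgeR called 0 genes and 0 list genes in either spleen CCl4 comparison (1322 and 704 genes at an unadjusted p under 0.05 in Treg and Tconv cells, 46 and 18 by DESeq2), and 4435 genes for Treg against Tconv cells in spleen.

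Sample numbers were not taken to pair the libraries: deviations of same-numbered libraries correlated between -0.07 and 0.48, not above 0.1 in every pair, and every library correlated best with its own number in the 6 control pairings and in 1 of 6 CCl4 pairings, spleen Treg with spleen Tconv, which is a hint from the data and not the design. With a replicate block, 32 genes and 1 list gene were called in liver Tconv and 7 list genes in spleen Tconv cells, and Penk differed by 1.30, 2.43, 0.26 and 1.36 in liver Treg, liver Tconv, spleen Treg and spleen Tconv cells. Of 40 list-gene calls after CCl4, 6 did not pass with the block, Pcsk1 in liver Treg (adjusted p = 0.0533) and Creb5 in liver Tconv cells (adjusted p = 0.0562) among them. For liver against spleen the blocked Penk difference was 0.51 in Treg and 0.64 in Tconv cells, and for Treg against Tconv cells 2.98 in liver and 3.12 in spleen. Depth limits statements on opioid receptors, most of which had under 1 CPM.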
